A study of Mus musculus with 10 samples.

Results

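Muscle relaxes when calcium is pumped out of the cytosol, and the genes described here carry that step. They are the 3 SERCA pump genes Atp2a1, Atp2a2 and Atp2a3, the genes of the short pump inhibitors sarcolipin (Sln), myoregulin (Mrln) and phospholamban (Pln), the gene of the cytosolic calcium buffer parvalbumin (Pvalb) and that of the calcium-binding protein sorcin (Sri). All 8 genes, chosen by name, were found among the 54232 genes of the deposited table, and all 8 lay above the expression limit, an average rlog value across the 10 mice no lower than log2(10), which left 14289 genes to be tested. Because the list was drawn up with the differences between the genotypes already known, these differences are given as a description, without a p-value.

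The gastrocnemius, a mixed but mainly fast calf muscle, was taken for RNA sequencing from 5 homozygous desmin knock-out mice (Des -/-) and 5 wild-type littermates (Des wt/wt) of the strain B6J.129Sv-Destm1Cba/Cscl at 3 months of age. The labels name the gastrocnemius alone, whereas the study's text also mentions the plantaris, a small fast muscle beside it, as a source of the RNA. The null allele is carried in the germline, so every tissue of these mice lacks intact Des and not only the muscle fibers. The values are regularized log (rlog) values, a log2-scale expression measure that corrects for library size and shrinks each value towards its gene's average, so differences are smaller than those of the counts. Sequencing depth is unknown from such values. Whole muscle was measured, and fewer cells of a type and less RNA per cell cannot be told apart.

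SERCA pumps sit in the membrane of the sarcoplasmic reticulum (SR) and return calcium from the cytosol to this store at the cost of ATP. SERCA1, from Atp2a1, is the pump of fast fibers, SERCA2, from Atp2a2, that of slow fibers and the heart, and SERCA3, from Atp2a3, is found mainly outside muscle. Sarcolipin, phospholamban and myoregulin are single-span membrane peptides that bind the pump and slow it, and sarcolipin also lets the pump burn ATP without moving calcium. Parvalbumin binds calcium in the cytosol of fast fibers and speeds relaxation.

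The coding sequences of the 3 inhibitors are short enough to be read whole, and they are shown because Sln and Mrln carry the main changes described here. They come from the GENCODE M21 transcripts (GRCm38), run from the start to the stop codon and lie in 1 exon each. The Sln sequence covers 96 bases (31 codons) on the forward strand of chromosome 9, 53853473 to 53853568. That of Pln covers 159 bases (52 codons) on chromosome 10, 53343864 to 53344022, and that of Mrln 141 bases (46 codons) on chromosome 10, 70219496 to 70219636, both on the forward strand. Capitals mark the in-frame stretch of 24 bases (8 codons) with the most identical bases between Sln and Pln, which holds 17.
Sln: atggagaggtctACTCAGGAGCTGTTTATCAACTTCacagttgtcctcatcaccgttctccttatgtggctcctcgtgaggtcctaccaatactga
Pln: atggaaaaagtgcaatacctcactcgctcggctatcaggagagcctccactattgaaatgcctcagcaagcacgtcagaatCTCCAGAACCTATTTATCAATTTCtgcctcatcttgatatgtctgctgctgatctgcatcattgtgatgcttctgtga
Mrln: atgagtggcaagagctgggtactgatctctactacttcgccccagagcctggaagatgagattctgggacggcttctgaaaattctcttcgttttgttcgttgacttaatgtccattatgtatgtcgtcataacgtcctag
The best stretch of the same length held 16 identical bases between Sln and Mrln and 14 between Pln and Mrln. The 3 pump genes were aligned over their whole coding sequences, so their values cannot be set against those of the short stretches. Of the aligned coding bases, 75.2% were identical between Atp2a1 and Atp2a2, 73.6% between Atp2a1 and Atp2a3 and 70.4% between Atp2a2 and Atp2a3. Their longest exactly shared runs were 44, 53 and 44 bases, and how reads that match more than 1 gene were counted is not given in the sources used here.

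The labels held in every mouse. Des (ENSMUSG00000026208) lay between 11.76 and 11.89 in desmin knock-out and between 16.10 and 17.74 in wild-type mice. Wild-type mouse 3 stood apart from the others. Summed on the linear scale, its values reached 1.48 times those of the median mouse, compared with 0.949 to 1.06 times for the other 9, and the difference of each member is therefore also given without it. Skeletal muscle transcripts were abundant, and Acta1, the skeletal α-actin, had 19.88 ± 0.11 (SD, n = 5) among knock-out mice and 20.29 ± 0.51 (SD, n = 5) among wild-type mice. Of 5 genes of skeletal muscle identity 0 passed at an adjusted p under 0.05 (limma), and at an unadjusted p under 0.05 there were 1 higher (Mb, myoglobin) and 1 lower (Ckm, muscle creatine kinase). Nkx2-5, a heart factor, was listed at 0 in all 10 mice. In the fit across all genes (limma, adjusted p under 0.05), 13.7% of tested genes differed between the genotypes, 7.7% being higher and 5.99% lower in desmin knock-out mice. For 7.45% of tested genes all knock-out values lay above all wild-type values, and for 6.97% they all lay below. Among the 8 members, 1 passed as higher (Sln) and 1 as lower (Mrln), and the genotypes did not overlap for 1 that was higher (Sln) and 1 that was lower (Atp2a1). Nothing is read from these counts, since the members were chosen on this contrast.

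Of all tested genes, sarcolipin had the greatest increase in mean from wild-type to desmin knock-out mice. Sln (ENSMUSG00000042045, chromosome 9, 53850164 to 53854560) had rlog values of 12.10, 12.04, 12.24, 12.21 and 12.17 in desmin knock-out mice 1 to 5 and of 8.82, 9.16, 8.77, 9.21 and 8.94 in wild-type mice 1 to 5. All knock-out mice were thus far above all wild-type mice, with a gap of 2.83 between the lowest knock-out and the highest wild-type value. The mean was 12.15 ± 0.08 (SD, n = 5) for knock-out mice, as compared to 8.98 ± 0.20 (SD, n = 5) for wild-type mice. The difference of 3.17 (standard error 0.10) is a ratio of 9.01 on the rlog scale and ranked 1 of 14289 in the direction of a rise. Without wild-type mouse 3 the difference was 3.12, and with each mouse left out in turn it stayed between 3.12 and 3.23.

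Myoregulin, an inhibitor peptide of skeletal muscle that acts on SERCA1, had the lower mean in desmin knock-out mice. Mrln (ENSMUSG00000019933, chromosome 10, 70204664 to 70219711) had rlog values of 10.49, 10.83, 10.95, 10.87 and 11.00 in desmin knock-out mice and of 11.65, 11.32, 10.99, 11.83 and 11.51 in wild-type mice. Of the 5 knock-out mice, 4 lay below all wild-type mice, and the fifth met the lowest wild-type animal, which was mouse 3. The knock-out mean of 10.83 ± 0.20 (SD, n = 5) and the wild-type mean of 11.46 ± 0.32 (SD, n = 5) gave a difference of -0.63 (standard error 0.15), a ratio of 1.55 in favor of wild-type mice. Without wild-type mouse 3 the difference was -0.75.

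Phospholamban, the inhibitor of SERCA2 in heart and slow muscle, had the lowest level of the inhibitor transcripts. Pln (ENSMUSG00000038583, chromosome 10, 53337667 to 53345987) had rlog values of 6.47, 6.54, 6.39, 6.51 and 6.49 in desmin knock-out and of 6.22, 6.49, 6.48, 5.90 and 6.15 in wild-type mice. Knock-out mice 2 and 4 lay above all wild-type mice, and the other 3 overlapped with wild-type mice 2 and 3. The difference of 0.23 (standard error 0.12) was close to the SD of 0.25 among wild-type mice and was 0.15 without wild-type mouse 4, whereas it was 0.29 without wild-type mouse 3. Exons of Pln share 1644 bases with Gm47644 and 141 bases with Cep85l on the opposite strand. The library kit was stranded, but the strand setting of the counting is not given in the sources used here, so reads of these overlaps cannot be assigned with certainty.

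**Figure D1:**
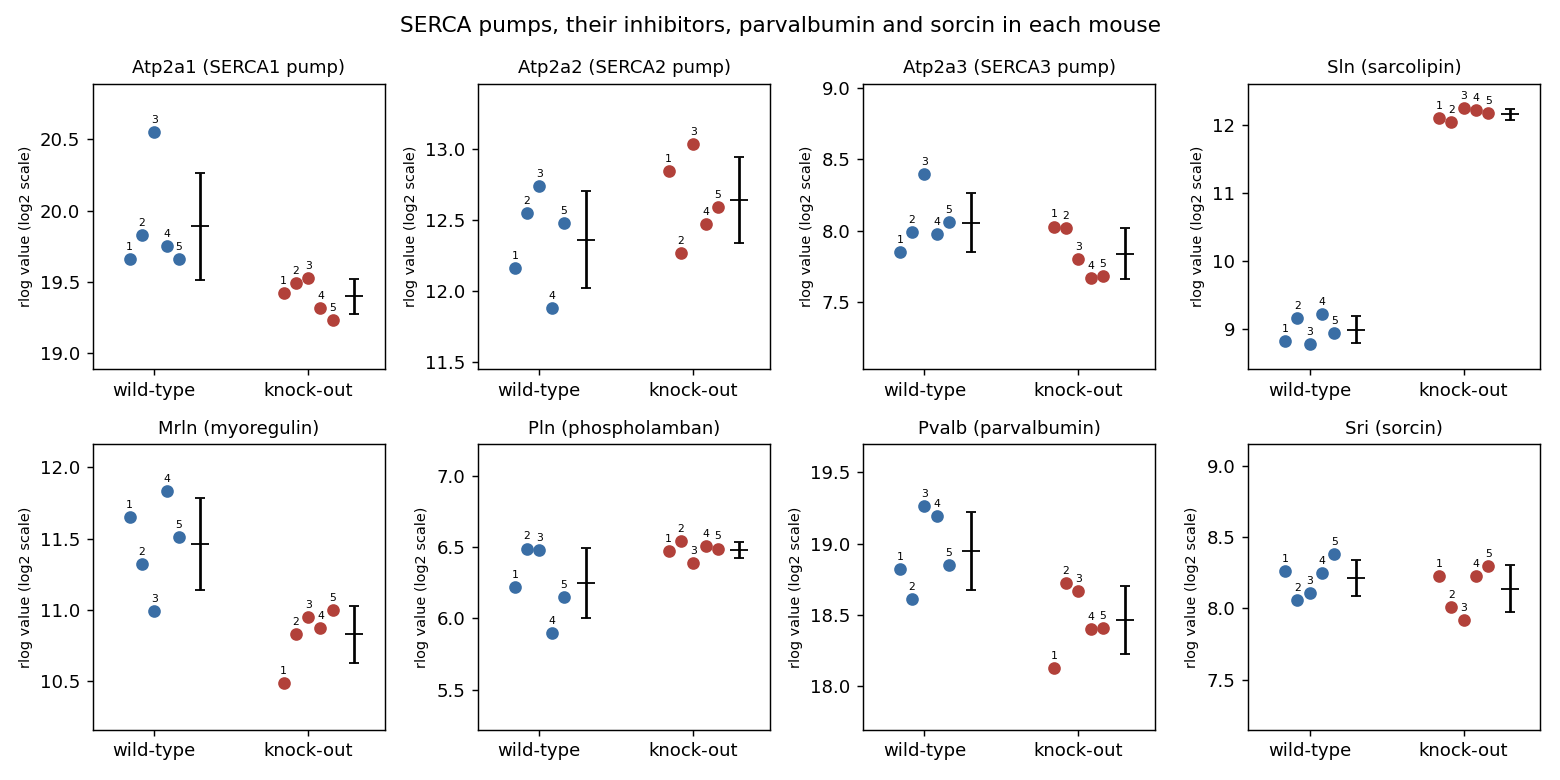
rlog values (log2 scale) of the 8 genes in each mouse, wild-type mice in blue and desmin knock-out mice in red, with mouse numbers beside the points and the mean ± SD as a black mark and bars. Sln separates the genotypes by a gap of 2.83, Atp2a1 separates them narrowly, and the other 6 genes overlap. The vertical axes are cut to the data and differ between panels.

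The lead of Mrln over Sln within a mouse was smaller in desmin knock-out mice, and whether it was lost depended on the length taken for Mrln, which has 1180 bases over all its exons but only 451 in its longest transcript. Levels of different genes were compared per length, as the rlog value minus the log2 of the length of all exons in kilobases. On this scale Mrln exceeded Sln by 2.64 ± 0.28 (SD, n = 5) in wild-type mice, with values of 2.99, 2.32, 2.38, 2.78 and 2.73. In desmin knock-out mice the same within-mouse value was -1.46, -1.06, -1.13, -1.18 and -1.01, which puts Sln above Mrln in all 5. With the longest transcript of each gene, Mrln was instead above Sln in 4 of 5 knock-out mice, by 0.22 ± 0.17 (SD, n = 5) on average, and in all 5 wild-type mice, by 4.03 ± 0.28 (SD, n = 5). With either length the genotypes did not overlap, and a within-mouse value does not depend on a scaling factor per mouse.

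Put as shares of the summed level per length of the inhibitor transcripts, Sln made up 13.8% ± 2.3 (SD, n = 5) in wild-type mice, but 68.7% ± 2.5 (SD, n = 5) in desmin knock-out mice. Mrln made up 85.2% ± 2.6 (SD, n = 5) and 30.7% ± 2.5 (SD, n = 5), respectively, and Pln no more than 1.55% in any mouse. These shares, too, rest on the length taken for Mrln. With the longest transcript of each gene, the share of Sln was 5.82% ± 1.07 (SD, n = 5) in wild-type mice, as compared to 46.0% ± 3.0 (SD, n = 5) in desmin knock-out mice, where the mean of Mrln was the larger one with 53.5% ± 3.0 (SD, n = 5).

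**Figure D2:**
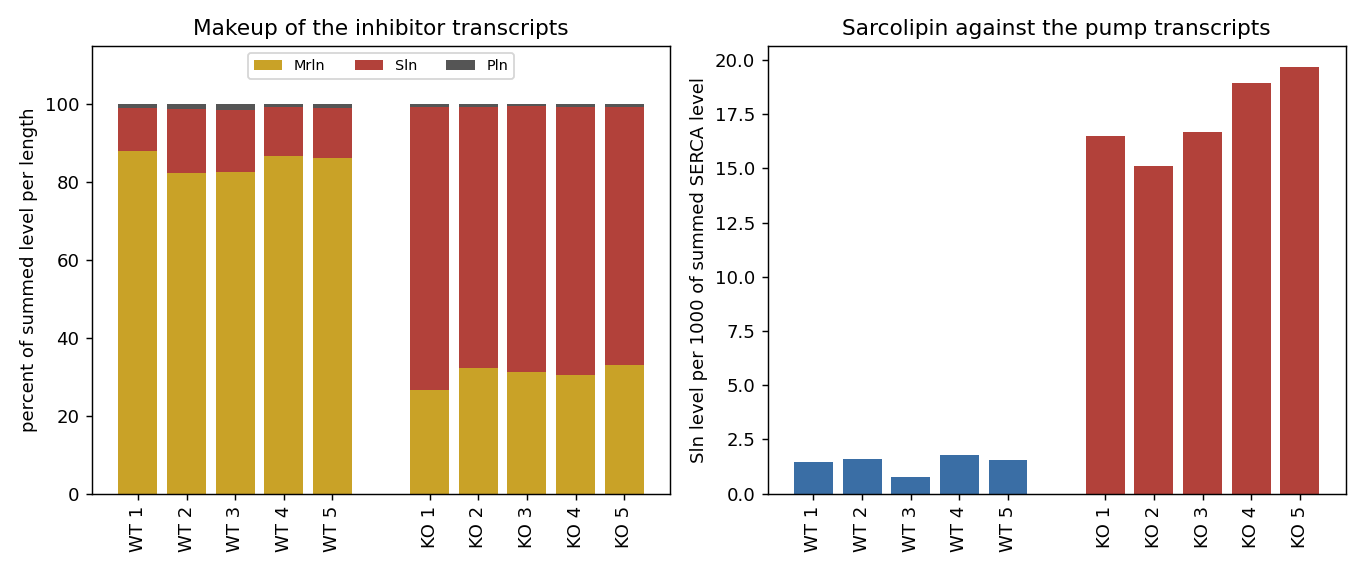
Left, the share of Mrln, Sln and Pln in their summed level per length in each mouse, in percent, with lengths over all exons. With the longest transcript the mean share of Sln in desmin knock-out mice is 46.0% instead of 68.7%. Right, the Sln level per 1000 of the summed level of the 3 SERCA genes, on the same scale, where wild-type mice lie between 0.751 and 1.77 and desmin knock-out mice between 15.1 and 19.7.

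Against the pumps, Sln stood at 1.42 ± 0.39 (SD, n = 5) per 1000 of the summed SERCA level per length in wild-type mice, but at 17.4 ± 1.9 (SD, n = 5) in desmin knock-out mice. Single wild-type mice had 1.43, 1.61, 0.751, 1.77 and 1.56, and single knock-out mice had 16.5, 15.1, 16.7, 18.9 and 19.7. The lowest knock-out value was thus far above the highest wild-type value. For Mrln the same ratio was 9.17 ± 3.32 (SD, n = 5) for wild-type mice, 7.80 ± 1.39 (SD, n = 5) for knock-out mice, and the genotypes overlapped. Taking the longest transcript, it was 10.2 to 31.7 in wild-type mice and 15.7 to 25.5 in desmin knock-out mice. The knock-out mean of 20.4 ± 3.6 (SD, n = 5) was then above that of Sln. With either length the lowest wild-type value was that of mouse 3, at 3.90 over all exons and 10.2 with the longest transcript. The other wild-type mice had 8.04 to 12.1 and 21.0 to 31.7, which still overlapped with knock-out mice. Within each mouse, the difference of Mrln from Atp2a1 per length changed by -0.14 between the genotypes, and by -0.43 without wild-type mouse 3. Sln, Mrln and Pln together had 10.7 ± 3.7 (SD, n = 5) per 1000 for wild-type mice. The value for knock-out mice, 25.3 ± 3.1 (SD, n = 5), did not overlap with it, the nearest mice having 14.0 and 22.5. For this sum the genotypes overlapped when the longest transcript was taken, at 11.0 to 33.6 in wild-type mice and 32.4 to 45.4 in desmin knock-out mice.

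Among the pumps, the fast isoform had the lower mean in muscle without desmin. Atp2a1 (ENSMUSG00000030730, chromosome 7, 126445858 to 126463108) had rlog values of 19.42, 19.49, 19.53, 19.32 and 19.23 in desmin knock-out and of 19.66, 19.83, 20.55, 19.75 and 19.66 in wild-type mice. The genotypes did not overlap, but the gap between them was only 0.12. The difference was -0.49 (standard error 0.21), and without wild-type mouse 3, the highest of all, it was -0.33 with the same gap. Quantile normalization, which gives each mouse the same distribution of values, left -0.12. Atp2a1 was among the most abundant transcripts, above the wild-type mean of 99.9% of tested genes. Its exons share 763 bases with Rabep2 on the opposite strand.

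The slow isoform had the higher mean in desmin knock-out mice, within the spread between mice. Atp2a2 (ENSMUSG00000029467, chromosome 5, 122453513 to 122502225) had rlog values of 12.84, 12.27, 13.03, 12.47 and 12.59 in desmin knock-out and of 12.16, 12.55, 12.74, 11.88 and 12.48 in wild-type mice. Only knock-out mice 1 and 3 lay above all wild-type mice, and the difference of 0.28 (standard error 0.17) was below the SD of 0.34 among wild-type mice. It was 0.37 without wild-type mouse 3 and 0.16 without wild-type mouse 4. Atp2a2 is known to be spliced into a muscle form and a general form, and a value per gene does not tell them apart.

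SERCA3 transcripts were scarce beside those of SERCA1, at 0.018% of the summed SERCA level per length in wild-type mice. Among all tested genes they were not scarce, lying above the wild-type mean of 44.0% of them. Atp2a3 (ENSMUSG00000020788, chromosome 11, 72961169 to 72993044) had rlog values of 8.03, 8.02, 7.80, 7.67 and 7.68 in desmin knock-out and of 7.85, 7.99, 8.40, 7.98 and 8.06 in wild-type mice. Of the knock-out mice, 3 lay below all wild-type mice and the other 2 among them. The difference of -0.22 (standard error 0.12) shrank to -0.13 without wild-type mouse 3.

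Within each mouse, Atp2a1 exceeded Atp2a2 per length by 8.30, 8.08, 8.61, 8.68 and 7.98 in wild-type and by 7.38, 8.02, 7.31, 7.66 and 7.44 in desmin knock-out mice. In 4 of 5 knock-out mice the lead of the fast pump was smaller than the smallest wild-type lead, and knock-out mouse 2 lay just above wild-type mouse 5. The difference between the genotypes was -0.77, and -0.70 without wild-type mouse 3 and -0.47 after quantile normalization. As a share of the summed SERCA level per length, Atp2a2 had 0.315% ± 0.067 (SD, n = 5) in wild-type mice, as compared to 0.533% ± 0.097 (SD, n = 5) in desmin knock-out mice, while the share of Atp2a1 lay between 99.4% and 99.7% over all mice. The pump transcripts of this muscle were thus almost entirely those of SERCA1 in both genotypes.

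Parvalbumin, like the fast pump, had the lower mean in desmin knock-out mice. Pvalb (ENSMUSG00000005716, chromosome 15, 78191114 to 78206400) had rlog values of 18.13, 18.72, 18.67, 18.40 and 18.41 in desmin knock-out and of 18.82, 18.61, 19.26, 19.19 and 18.85 in wild-type mice. Of the knock-out mice, 3 lay below all wild-type mice, and knock-out mice 2 and 3 overlapped with wild-type mouse 2. The difference of -0.48 (standard error 0.19) was -0.40 without wild-type mouse 3 and -0.17 after quantile normalization. Within each mouse, Pvalb exceeded Atp2a1 per length by 0.80 ± 0.30 (SD, n = 5) in wild-type mice, as compared to 0.81 ± 0.21 (SD, n = 5) in desmin knock-out mice. The difference of this lead, 0.01, was far below the spread between mice.

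Sorcin, which binds calcium and is known to act on the SR release channel and on SERCA, showed no difference beyond its spread. Sri (ENSMUSG00000003161, chromosome 5, 8046078 to 8069379) had rlog values of 8.23, 8.01, 7.92, 8.23 and 8.30 in desmin knock-out and of 8.26, 8.06, 8.11, 8.25 and 8.38 in wild-type mice. Knock-out mice 2 and 3 lay below all wild-type mice, the other 3 lay among them, and the difference was -0.07 (standard error 0.11). It was -0.10 without wild-type mouse 3, -0.12 after median centring of the mice and 0.02 with sample weights, so no direction can be given.

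**Figure D3:**
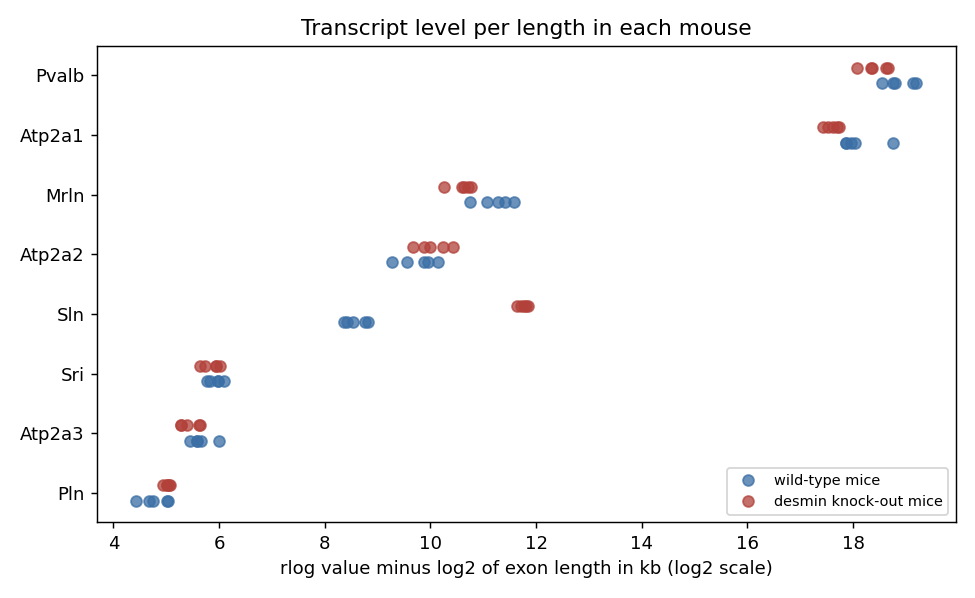
Level per length (rlog value minus log2 of the exon length in kilobases) of each gene in the 5 wild-type (blue) and 5 desmin knock-out mice (red), ordered by the wild-type mean. Pvalb and Atp2a1 lie between 17.43 and 19.20 in both genotypes, and Sln is the only gene that changes its place by more than 1 position, from the fifth to the third. If the longest transcript is the length, Mrln keeps the third place in desmin knock-out mice.

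Ordered by level per length in wild-type mice, Pvalb came first with 18.89 ± 0.27 (SD, n = 5), before Atp2a1 with 18.09 ± 0.38 (SD, n = 5). Then followed Mrln with 11.22 ± 0.32, Atp2a2 with 9.76 ± 0.34 and Sln with 8.58 ± 0.20 (SD, n = 5 each). Sri with 5.93 ± 0.13, Atp2a3 with 5.66 ± 0.21 and Pln with 4.78 ± 0.25 (SD, n = 5 each) came last, and among neighbors in this order Pvalb overlapped with Atp2a1 and Sri with Atp2a3. In desmin knock-out mice Sln took the third place, with 11.75 ± 0.08 (SD, n = 5), before Mrln with 10.59 ± 0.20 and Atp2a2 with 10.04 ± 0.30 (SD, n = 5 each), of which the last 2 overlapped. With the longest transcript in place of all exons the wild-type order was the same, but Mrln at 11.97 came before Sln at 11.75 in desmin knock-out mice.

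The promoters of the fast pump and of parvalbumin are shown because both genes had lower means in desmin knock-out mice and lie at the top of the order. The RefSeq promoter table (GRCm38.p6) held 6 of the 8 genes. Shown are the 250 bases before the start, on the reverse strand, at chr7:126463074-126463323 for Atp2a1 and at chr15:78206401-78206650 for the upstream start of Pvalb. Capitals mark CAGCTG, an E-box form that myogenic factors are known to bind, and the motif of the MEF2 factors, which are regulators of muscle genes. Both were searched on both strands.
Atp2a1: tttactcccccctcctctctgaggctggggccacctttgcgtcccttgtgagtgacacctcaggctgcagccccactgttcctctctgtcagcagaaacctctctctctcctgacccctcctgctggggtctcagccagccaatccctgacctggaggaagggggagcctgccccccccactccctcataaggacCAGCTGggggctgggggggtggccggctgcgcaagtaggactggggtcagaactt
Pvalb: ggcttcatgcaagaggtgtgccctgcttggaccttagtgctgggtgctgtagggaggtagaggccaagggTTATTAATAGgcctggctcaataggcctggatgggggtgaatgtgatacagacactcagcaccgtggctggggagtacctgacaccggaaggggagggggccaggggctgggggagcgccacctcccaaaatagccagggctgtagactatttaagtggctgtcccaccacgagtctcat
The window of Atp2a1 held 1 CAGCTG, which begins 55 bases before the start, and no MEF2 motif. That of Pvalb held 1 MEF2 motif, which begins 180 bases before the start, and no CAGCTG. Of all promoters, 13% held CAGCTG and 2.92% the MEF2 motif, counted over the 32851 windows of the same length in the table. The other windows of the 6 genes, including the second start of Pvalb, held neither motif.

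Some fiber-type transcripts also differed between the genotypes, and their part in the member differences was not tested. The marker lists were drawn up with earlier results of these data known, so their counts and p-values are no independent test. Among 10 fast-fiber genes, 3 were lower in desmin knock-out mice and 0 were higher (limma, adjusted p under 0.05), with a median difference of -0.41 in comparison with -0.00 over all tested genes. At an unadjusted p under 0.05, 4 were lower and 1 was higher, the fast myosin Myh1 with a difference of 0.58 (limma, standard error 0.24, adjusted p = 0.132). Mybpc2, the fast myosin-binding protein C, differed by -1.05 (limma, standard error 0.19, adjusted p = 0.00258) and Actn3, the fast-fiber α-actinin, by -0.97 (standard error 0.25, adjusted p = 0.0196). Without wild-type mouse 3 these differences were -0.86 and -0.70, and that of Myh1 was 0.79. Every fast-fiber gene with a lower knock-out mean had a smaller difference without this mouse, the smallest being -0.17. The log2 of the summed level of the list was 21.91 to 22.09 in desmin knock-out and 22.13 to 23.06 in wild-type mice. The highest of these values was that of wild-type mouse 3. Of 10 slow-fiber genes, 4 were higher and 1, the slow light chain gene Myl3, was lower (limma, adjusted p = 0.0143). Csrp3, the muscle LIM protein, was higher by 1.49 (limma, standard error 0.16, adjusted p = 3.01e-05) and Tnnt1, the slow troponin T, by 1.70 (limma, standard error 0.20, adjusted p = 8.53e-05). Without wild-type mouse 3 these differences were 1.48 and 1.91. Myh7, the slow myosin heavy chain itself, differed by -0.05 (limma, standard error 0.32, adjusted p = 0.933), and the log2 of the summed level of the list was 15.97 to 16.29 in desmin knock-out and 15.00 to 16.08 in wild-type mice. Myh2, the myosin of fast oxidative type IIA fibers, was higher by 0.77 (limma, standard error 0.20, adjusted p = 0.0195). All 5 genes of embryonic and regenerating fibers were higher, with a median difference of 1.35, led by the embryonic myosin Myh3 (2.25, limma, standard error 0.19) and the fusion gene Mymk (1.93, standard error 0.20).

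Transcripts of other cell types were also followed, because Pln is expressed in smooth muscle and Atp2a3 in blood and endothelial cells. Their part in the values of Pln and Atp2a3 was not tested. Of the 4 smooth muscle genes 0 passed in either direction, with 0 also at an unadjusted p under 0.05 (limma). Myh11, the smooth muscle myosin, differed by -0.36 and Acta2, the smooth muscle actin, by -0.32 (standard errors 0.17 and 0.21), and the log2 of the summed level was 11.79 to 12.45 in desmin knock-out and 11.94 to 13.05 in wild-type mice. Of the 4 endothelial genes 3 were lower, among them Cdh5 (-0.52) and Pecam1 (-0.49), with a median of -0.45 and summed levels of 11.34 to 11.83 among knock-out mice and 11.84 to 12.17 among wild-type mice. Of 5 lymphoid and platelet genes 2 were tested and 0 passed, with 1 higher at an unadjusted p under 0.05, the platelet integrin Itga2b (0.29). Among 4 fibroblast genes the collagens Col1a1 (0.50) and Col3a1 (0.52) were higher, and among 4 erythroid genes Alas2 and Hbb-bs were lower, the latter by a difference of -0.74. Of the 5 macrophage, the 4 adipocyte, the 4 Schwann cell and the 1 tested heart gene, 0 passed, with 0 also at an unadjusted p under 0.05 (limma).

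Outside the 8 members, the calcium cycle was represented by 59 genes in 7 groups, of which 53 were tested. In desmin knock-out mice 6 of these passed as higher and 7 as lower (limma, adjusted p under 0.05), which is 13 of 53. Over all tested genes 13.7% passed, 7.7% as higher and 5.99% as lower. This list, too, was drawn up with earlier results of these data known, so its counts and p-values are no independent test. The median difference of the 53 genes was -0.10. Without wild-type mouse 3 the count was 21, with 9 higher and 12 lower, while that over all genes went from 1956 to 2496. Of the 13 genes, 9 kept their adjusted p under 0.05 in all alternatives that used the same threshold.

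In calcium storage of the SR, 2 of 7 genes were higher and 0 lower. Casq2, the calsequestrin of heart and slow fibers, had 11.44, 11.38, 11.79, 11.77 and 11.67 in desmin knock-out and 10.39, 10.73, 10.75, 9.95 and 11.21 in wild-type mice, without overlap. The means differed by 1.01 (limma, standard error 0.19, adjusted p = 0.00279). Tmem38b, a cation channel of the reticulum, was higher by 0.26 (standard error 0.08), but its adjusted p, just under 0.05, was lost in 13 of 18 alternatives, among them the fit with the replicate block (adjusted p = 0.14 from limma). For Casq1, the calsequestrin of fast fibers, the value was -0.38 (limma, standard error 0.16, adjusted p = 0.147).

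At the triad, where the T-tubule meets the SR and calcium is released, 0 of 13 genes were higher and 2 were lower. Ryr3, the minor release channel of adult muscle, differed by -0.85 (limma, standard error 0.24, adjusted p = 0.0289), and Jph2, a junctophilin that holds the membranes together, by -0.41 (standard error 0.12, adjusted p = 0.0404). The adjusted p of Ryr3 was lost in 7 and that of Jph2 in 10 of 18 alternatives, the latter also with the replicate block (adjusted p = 0.0526 from limma). Ryr1, the main release channel, differed by -0.48 (limma, standard error 0.15, adjusted p = 0.0551), and its knock-out values from 15.69 to 16.07 all lay below the wild-type values from 16.16 to 16.89.

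Of 8 further genes known to act on SERCA or its inhibitors, 6 were tested, 0 were higher and 1 was lower. Ppp1r1a, an inhibitor of protein phosphatase-1, the enzyme that removes phosphate from phospholamban, had 8.40, 8.70, 8.77, 8.65 and 8.40 in desmin knock-out and 9.60, 9.60, 10.51, 10.01 and 10.47 in wild-type mice. The groups lay apart, and the means differed by -1.46 (limma, standard error 0.18, adjusted p = 1.24e-04). S100a1, a calcium sensor that favors SERCA activity, differed by 0.29 (limma, standard error 0.12, adjusted p = 0.142) and Tmx1, a thioredoxin-related membrane protein, by 0.23 (standard error 0.12, adjusted p = 0.218). The genes of the related peptides DWORF (Gm34302 in the annotation) and endoregulin (Smim6) lay under the expression limit, whereas 1810037I17Rik, the gene of another-regulin, was measured at 9.86 ± 0.10 (SD, n = 5) among knock-out mice and 9.96 ± 0.09 (SD, n = 5) among wild-type mice.

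In mitochondrial calcium uptake 3 of 9 genes were higher and 0 lower. Among the higher ones were the pore gene Mcu (limma, 0.54, standard error 0.15, adjusted p = 0.0256) and its regulator Micu2 (0.48, standard error 0.09, adjusted p = 0.00235). The adjusted p of Mcu was lost in 5 of 18 alternatives. Without wild-type mouse 3, whose Mcu value of 9.33 was the lowest, the difference of Mcu was 0.38 and that of Micu2 was 0.53. Among plasma membrane extrusion genes, 6 of 7 were tested and 1 was lower. This was Atp2b3, a calcium pump of the plasma membrane (limma, -0.77, standard error 0.15, adjusted p = 0.00324). The sodium-calcium exchangers Slc8a2 and Slc8a1 differed by -0.29 and -0.36 (limma, adjusted p = 0.137 and 0.216). Of the 5 genes of store-operated entry, 0 passed, with 0 also at an unadjusted p under 0.05 (limma). The channel genes Orai2 and Orai1 differed by 0.27 and 0.18 and Stim2, a calcium sensor of the store, by -0.15 (limma, adjusted p = 0.235, 0.513 and 0.496).

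Of the cytosolic buffers and sensors, 7 of 10 were tested, with 1 higher and 3 lower. Camk2d, a calcium-calmodulin-dependent kinase that phosphorylates phospholamban in the heart, had 12.38, 12.47, 12.36, 12.48 and 12.47 in desmin knock-out and 11.57, 11.53, 10.64, 11.52 and 11.56 in wild-type mice. The means differed by 1.07 (limma, standard error 0.16, adjusted p = 4.76e-04), and by 0.89 without wild-type mouse 3, whose value was the lowest. The related Camk2a differed by -0.54 (limma, standard error 0.10, adjusted p = 0.00239). Ocm, the gene of oncomodulin, a parvalbumin of the inner ear, was listed at 0 in all mice.

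**Figure D4:**
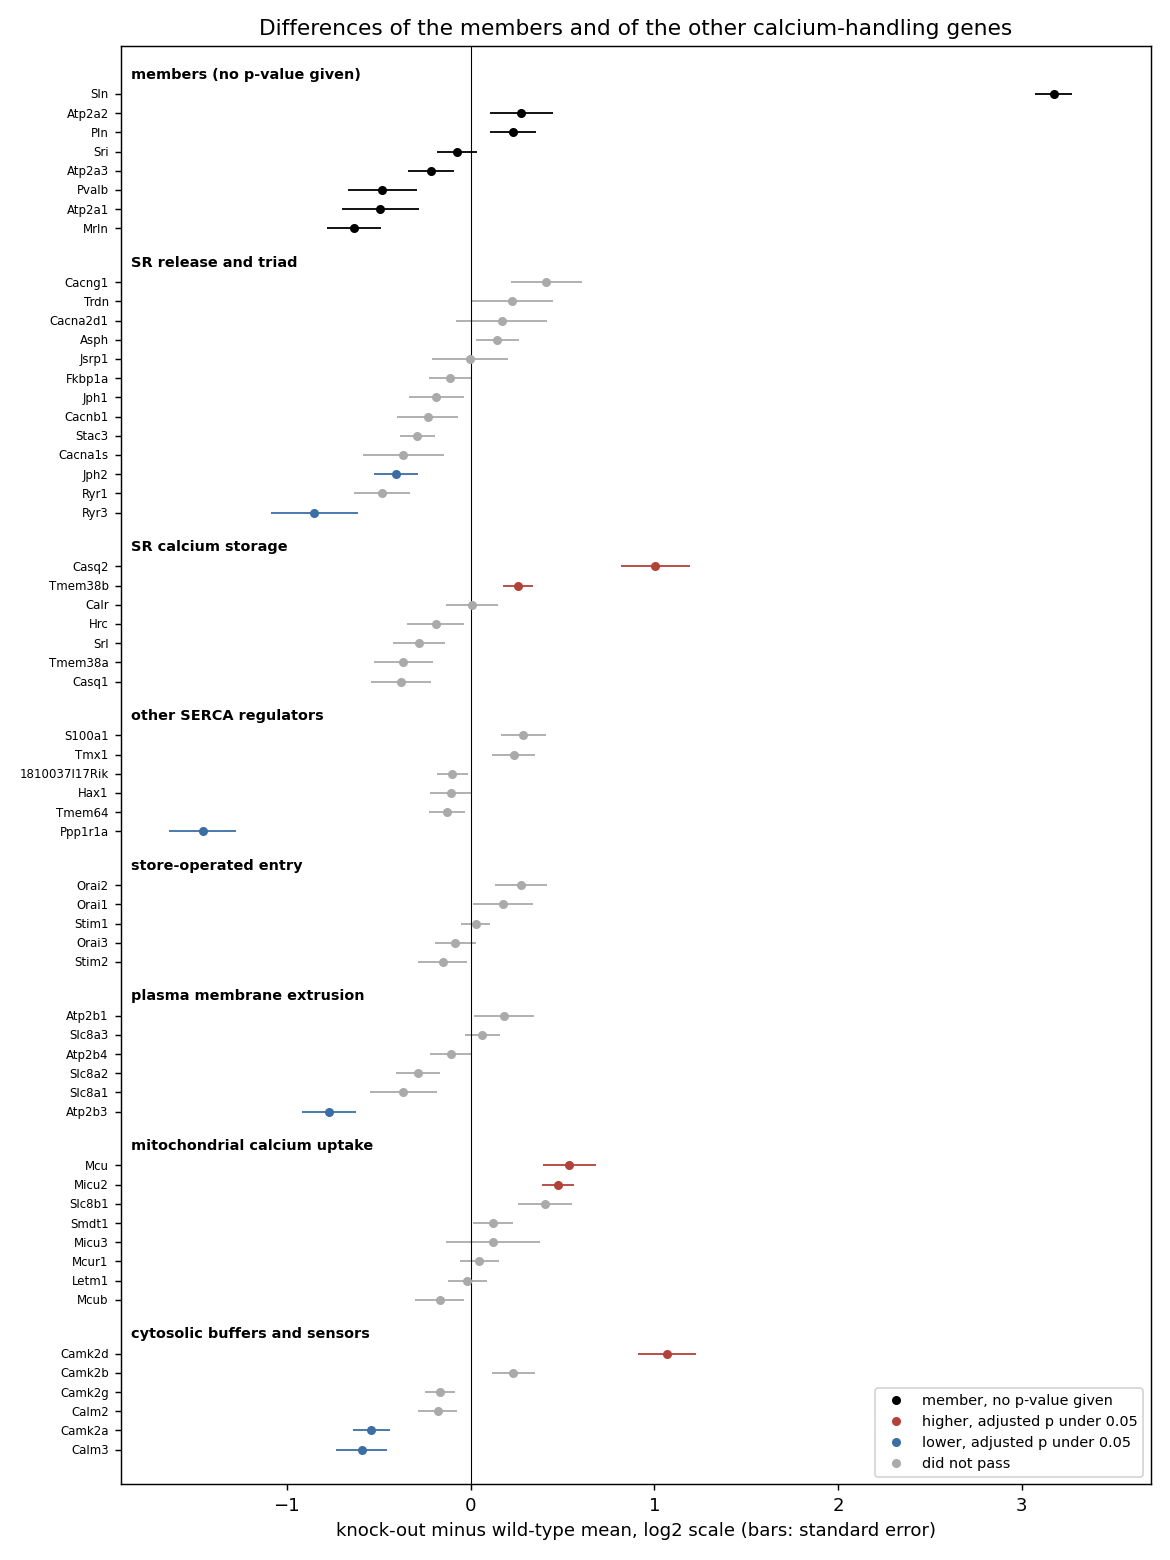
Difference between the genotypes (desmin knock-out minus wild-type mean, log2 scale) with its standard error for the 8 members, in black and given without a p-value, and for tested genes of the 7 calcium-handling groups. Red and blue mark genes that were higher or lower at an adjusted p under 0.05 (limma), and gray marks the others. Sln lies far to the right of all of them at 3.17.

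For 4 members, the 5 genes with the most similar values over the mice were listed by Pearson correlation over all 10 mice, as a description. Genes most like Sln were Aldh1b1, Igsf1, Osbpl3, Gm47015 and Nab2, with r between 0.989 and 0.992. Since the 2 genotypes form separate clusters for Sln, such a value mainly ranks genes with a wide gap between the genotypes, and these genes had differences between 1.07 and 1.84, against 3.17 for Sln.

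Genes most like Atp2a1 were Fxr2, Zfp651, Akt2, Tbc1d9b and Tbc1d13, with r between 0.983 and 0.991. Without wild-type mouse 3, which was highest for Atp2a1, the same genes had r between 0.937 and 0.964 over 9 mice. Genes most like Pvalb were Arrb2, Actr3b, Dnph1, Slc37a4 and Jph2, with r between 0.956 and 0.977, and genes most like Atp2a2 were Sap130, Ppp2r5c, Prelid2, Rasl12 and Nat8f4, with r between 0.879 and 0.956. The 5 genes most like Atp2a2 had differences between 0.06 and 0.27, and the genotypes were less far apart for them than for the genes most like Sln. Jph2, near Pvalb in this order, is the junctophilin gene described above.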

How the data were processed

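Per the labels, the authors trimmed reads with cutadapt 2.5, aligned them with STAR 2.5.4a to GRCm38, counted them per gene with featureCounts (Subread 1.6.1) and transformed them with DESeq2. The deposited values are rlog values on a log2 scale, 1 column per mouse, although the methods speak of pooled RNA. The rlog settings are not given in the sources used here. Shrinkage towards the mean of the gene makes differences too small, most for genes with few reads.

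Symbols were matched for 54165 of 54232 genes in GENCODE M21. All genes averaging log2(10) or more were fitted with limma 3.58.1 in R 4.3.3 (lmFit, eBayes with a variance trend, two-sided, Benjamini-Hochberg over 14289 genes, no covariate), and the fit was tested on simulated data. The p-values measure the spread between the columns, each taken as a single mouse as labeled, although the methods speak of pooled RNA. Lengths were the union of all exons. Members and lists were chosen with earlier results of these data known. Named genes followed a rule: Des, the members, in each calcium group the 3 genes of lowest adjusted p, in each marker list the first 2 by the same order (for lists without a called gene only where they bear on a result), and the 5 genes most correlated with Sln, Atp2a1, Atp2a2 and Pvalb. Acta1, Mb, Myh1, Myh7, Myl3, Nkx2-5, the 3 other SERCA peptide genes, Ocm and genes overlapping a member were added after their values were seen. Some genes of the calcium groups are counted but not reported here by name. As alternatives, the expression limit was dropped or set to log2(50), mice were centred on their medians or quantile-normalized, the prior variance was held constant, samples were weighted, the replicate number entered as a block, 4 Y-linked transcripts entered as a covariate, each mouse was omitted, the adjusted p was set to 0.01, and the longest transcript served as the length.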

Additional observations from a re-analysis of the deposited data

Results flagged for a closer look

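Each genotype of the 8 members, of Des and of the difference between Atp2a1 and Atp2a2 was searched for a mouse far from the other 4, which makes 20 groups. Such a mouse was found in 2 of them, where chance gives about 1. Both times it was wild-type mouse 3, with the value 20.55 for Atp2a1 and 17.74 for Des, each above the other wild-type mice.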

How the results depend on the processing

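The difference of Sln stayed between 3.12 and 3.23 and that of Mrln between -0.75 and -0.54 in all 18 alternatives run for them. Quantile normalization gave a difference of -0.12 for Atp2a1, -0.17 for Pvalb and -0.47 for the within-mouse lead of Atp2a1 over Atp2a2. The cause was not tested. Adjusting for Y-linked transcripts, Atp2a1 had -0.31 and Atp2a3 -0.09. These transcripts were present in all 10 mice, so the covariate does not separate males from females. Their lowest value, 8.03, was that of wild-type mouse 3. With the longest transcript as the length, the wild-type level was 12.61 for Mrln and 6.89 for Sri. Sample weights gave 4220 instead of 1956 changed genes and 28 instead of 13 changed calcium-handling genes, and an adjusted p under 0.01 gave 994 and 8. With 1 mouse left out, the counts were 1400 to 2496 and 9 to 21, the highest of both without wild-type mouse 3. The same fits gave 0.15 to 0.29 for Pln, -0.55 to -0.33 for Atp2a1, 0.16 to 0.37 for Atp2a2, -0.27 to -0.13 for Atp2a3, -0.57 to -0.40 for Pvalb, -0.12 to -0.02 for Sri and -0.88 to -0.68 for the within-mouse lead. Same-numbered mice of the 2 genotypes deviated together in 0 of 5 pairs (correlation over 0.1). Paired mice need not deviate together, so this check cannot exclude a pairing by number. With the replicate block the difference of Sln was 3.17, and among the 13 calcium-handling genes Tmem38b and Jph2 lost their adjusted p under 0.05. Depth is unknown, so the counting error of Pln, Atp2a3 and Sri, the members with the lowest values, could not be assessed.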
